A study of Mus musculus with 4 samples.

Results

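Ribosomal protein genes encode the protein part of the cytoplasmic ribosome, and their occupancy by RYBP was read in mouse mesoderm. They were taken from the autosomal protein-coding genes of the GENCODE annotation of mm9. The symbol had to be Rpl or Rps, a number and nothing more than a final a or x, and Rplp0, Rplp1, Rplp2 and Rpsa were added. This gave 72 genes of 21410 autosomal protein-coding genes, with 42 for the large subunit and 30 for the small subunit. The rule itself uses symbols and chromosomes only.

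RYBP was measured by chromatin immunoprecipitation and sequencing (ChIP-seq) with an antibody against DEDAF, another name of RYBP, in 2 samples of wild-type cells. The cells were FLK1+ mesoderm from embryoid bodies, aggregates in which mouse embryonic stem cells differentiate. Their strain is labelled C57Bl/6 X Sv129, the study names the line J1, no allele was altered and no agent was given. The labels give day 3.75 of differentiation, the methods a slightly later day, and the design text adds that PDGFRa was absent and that the differentiations were independent. That text speaks of SCL ChIP, whereas the series title and the antibody name RYBP. The other 2 samples are inputs (chromatin that was not precipitated) of the same cells and were not analysed here. FLK1 was the only gate in the methods, and peak lists hold no expression, so the cell type could not be checked against its markers.

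A merged region is an interval of the authors' union of both peak lists, so it needs a peak in 1 replicate only. A gene counted as occupied when a region or peak reached within 2.5 kb of a protein-coding start site. The fold enrichment of a peak is the caller's linear ratio of ChIP signal to local background. The q-value is the caller's estimate of the share of false calls among peaks at least as strong, so a larger −log10 q is a stronger call. The lists carry no reads, so depth is unknown here, although the study lists more mapped reads for replicate 1, which has fewer peaks. With a single group of 2 replicates no test between groups was possible, and differences are given as sizes with both replicates side by side.

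Ribosomal protein genes are among the most strongly transcribed genes of growing cells, and each ribosome holds its proteins in near-equal number. Their start sites usually lie in CpG islands, stretches rich in the dinucleotide CpG that stay unmethylated. RYBP belongs to the variant forms of Polycomb repressive complex 1 (PRC1), which put ubiquitin on a core histone and are recruited in large part to CpG islands. Several ribosomal protein genes, among them Rps19, are mutated in Diamond-Blackfan anaemia, a failure of red cell production.

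Upstream sequences of 3 members are shown, in mm9 and 5′ to 3′ on the strand of the gene, because they set RYBP calls against CpG content. Each is the stretch of 250 bases before the outermost annotated end of the gene and overlaps no annotated exon, and CpG dinucleotides are in capitals. Rps6 (chr4:86503317-86503566, minus strand) is shown as a member with strong calls in both replicates (−log10 q 3.43 and 4.22), and its region began 37 bp past the start site. Rpl34 (chr3:130433317-130433566, minus strand) had no peak although its CpG density was as high as that of any member without one. Rpl7 (chr1:16094744-16094993, minus strand) had the lowest CpG density within 500 bp of the start site among members with a peak in both replicates. Over 1 kb on each side its density was above the median of the members. The region at Rpl7 lay upstream and nearest the start site of another gene, Rdh10. Its call therefore cannot be set against the CpG content of Rpl7 alone.
Rps6: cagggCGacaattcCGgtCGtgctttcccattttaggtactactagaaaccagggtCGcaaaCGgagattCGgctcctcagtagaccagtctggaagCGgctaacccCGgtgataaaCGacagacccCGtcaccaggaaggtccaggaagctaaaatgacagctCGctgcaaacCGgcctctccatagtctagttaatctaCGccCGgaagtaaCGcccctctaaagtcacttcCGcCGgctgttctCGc
Rpl34: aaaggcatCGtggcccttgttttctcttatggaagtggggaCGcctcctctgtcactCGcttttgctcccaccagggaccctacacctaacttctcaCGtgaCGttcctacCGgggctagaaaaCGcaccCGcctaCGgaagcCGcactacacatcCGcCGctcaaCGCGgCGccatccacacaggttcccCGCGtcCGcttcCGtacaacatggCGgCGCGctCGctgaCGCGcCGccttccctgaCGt
Rpl7: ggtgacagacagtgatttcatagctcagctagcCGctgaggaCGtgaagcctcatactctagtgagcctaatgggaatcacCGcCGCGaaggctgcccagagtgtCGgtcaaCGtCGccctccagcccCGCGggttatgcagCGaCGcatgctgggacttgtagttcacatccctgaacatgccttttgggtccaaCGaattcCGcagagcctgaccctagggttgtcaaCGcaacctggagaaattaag
The Rps6 stretch held 18 CpG, the Rpl34 stretch 27 and the Rpl7 stretch 15. Within 500 bp on each side of the start site Rps6 and Rpl34 had the same density, 8.99 CpG per 100 bp. The Rps6 region lay wholly outside its printed stretch, so the count of that stretch does not describe the region.

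A merged RYBP region was found at 37 of the 72 ribosomal protein genes, a share of 51.4% (exact 95% binomial interval 39.3 to 63.3). Over all autosomal protein-coding genes the share was 54.8%, so the members lay near the background. Other genes with the same mix of start-site CpG densities had a share of 85.6%, which would correspond to 61.6 occupied members. Ribosomal protein genes therefore fell 34.2 percentage points below genes of like CpG density, and that share lay above the upper end of their interval. These intervals cover counting error over genes only, and genes of 1 sample are not replicates.

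The same direction was seen in each replicate. In replicate 1, 16 members had a peak (22.2%, interval 13.3 to 33.6), against a background of 41.6% and 64.5% of genes of like CpG density. In replicate 2, 37 members had a peak (51.4%), against a background of 51.8% and 82.3% of genes of like CpG density. A peak in both replicates was present at 16 members (22.2%), against a background of 38.7% and 61.2% of genes of like CpG density. The merged share of the members thus rests on replicate 2, since without that replicate it was 22.2%.

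Every member with a replicate 1 peak also had a replicate 2 peak, and in all 16 the peaks overlapped. A further 21 members had a peak in replicate 2 alone, 0 had one in replicate 1 alone and 35 had none. Of the members with a replicate 2 peak, 43.2% also had one in replicate 1, compared with 74.6% of all autosomal genes with a replicate 2 peak and 75.3% of those of like CpG density.

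**Figure D1:**
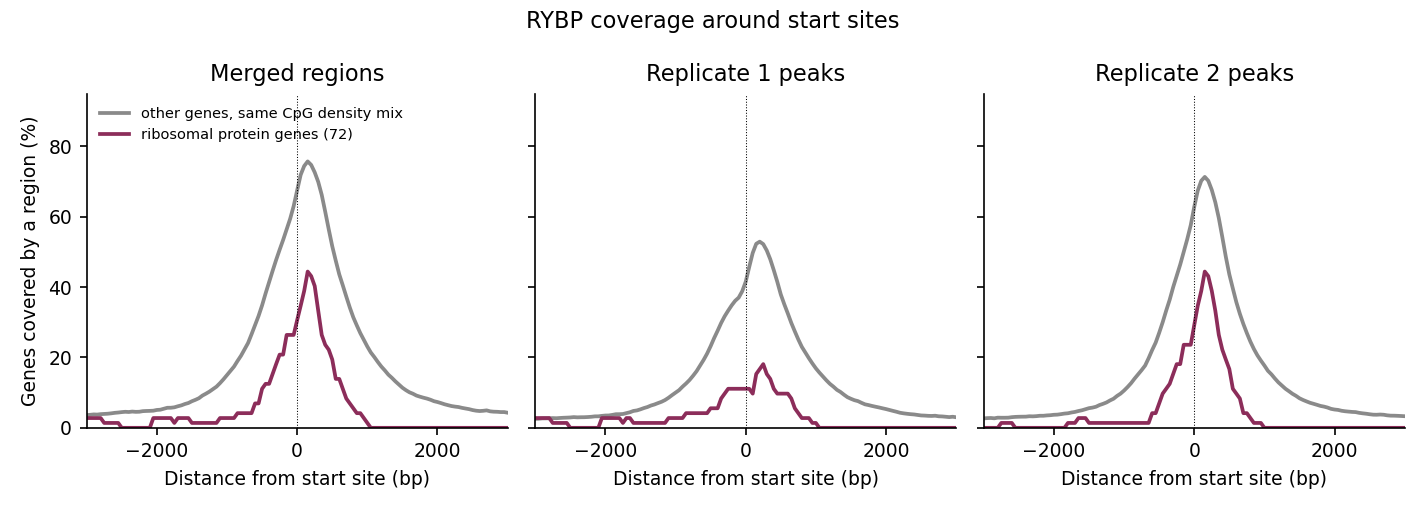
Share of genes (%) whose position at each distance from the start site of highest CpG density (bp, transcribed side positive) lies in a merged region, a replicate 1 peak or a replicate 2 peak. Lines are the 72 ribosomal protein genes and other genes weighted to the same CpG densities, and the members stay below the other genes around the start site, with a highest merged share of 44.4% against 75.7%.

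The plot of coverage around start sites shows the same gap by position. Both sets were highest 150 bp downstream of the start site, at 44.4% of members and 75.7% of genes of like CpG density. At the start site itself 30.6% of members and 67.5% of the other genes were covered. Coverage of the members also ended sooner, with 1.39% covered 1000 bp downstream against 23.1%. The widest merged region of each occupied member was narrower, with a median width of 652 bp (196 to 1628 bp). The widest region at genes of like CpG density had a median of 1049 bp. Over all merged regions, each counted singly, the median width was 766 bp.

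Start-site CpG density was counted per 100 bp within 500 bp on each side, at the start site where it was highest. The median over the members was 7.14 (3.80 to 9.49), above the median of 4.70 of all autosomal protein-coding genes. Members with a region had a median of 7.39 and those without 6.69. Among members with a density of at least 7, 26 of 39 had a region (66.7%), and below 7 it was 11 of 33 (33.3%). This is a description over 72 genes, and the trend was not tested.

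**Figure D2:**
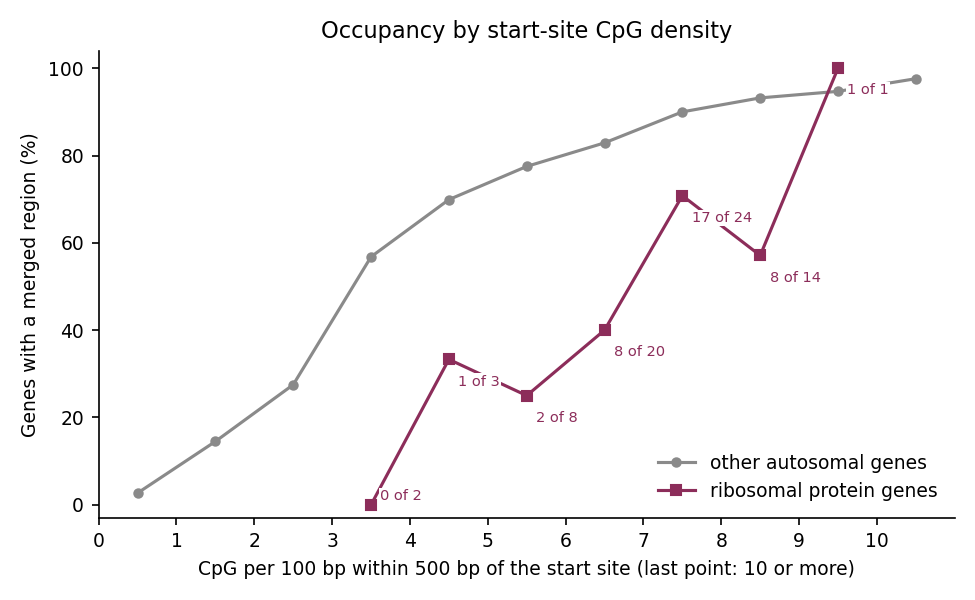
Share of genes with a merged region (%) by start-site CpG density (CpG per 100 bp, bins of 1, the last open), for ribosomal protein genes with their counts and for other autosomal protein-coding genes. The members lie below the other genes in every bin that holds at least 2 of them.

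The plot by CpG density shows that the members lay below the other genes in every bin up to 9 CpG per 100 bp. Between 6 and 7 CpG per 100 bp, 8 of 20 members had a region, against 82.9% of other genes. Between 7 and 8 it was 17 of 24, against 90.0%, and between 8 and 9 it was 8 of 14, against 93.2%. The sole member above 9, Rpl24 of the large subunit (9.49 per 100 bp), had a region in replicate 2 alone (−log10 q 1.45), and it lay at another start site of the gene, 7224 bp from the densest one. At their densest start site alone 35 members had a region (48.6%), against 85.2% of genes of like CpG density, Rpl24 and Rpl13a being those lost. The members next to it, all at 8.99, were not alike in occupancy. Rpl19 and Rps6 had peaks in both replicates, Rpl7a had one in replicate 2 alone, and Rpl34 and Rps2 had none. At the other end, Rpl23a (3.80), Rpl6 (4.90), Rpl4 and Rpl3 had no region, and Rpl35 (4.70) had a replicate 2 peak of fold enrichment 2.89.

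Where called, the peaks at ribosomal protein genes were of modest enrichment. In replicate 1 the median fold enrichment over 16 members was 3.34 (2.76 to 4.60), against 3.53 over the 8904 autosomal genes with a peak and 3.56 over those of like CpG density. In replicate 2 the median over 37 members was 3.42 (2.88 to 5.34), against 3.90 over 11095 genes and 3.93 over those of like CpG density. The medians of the members lay above 38.0% and 25.2% of those genes in replicates 1 and 2. Median −log10 q of the members was 3.22 in replicate 1 and 2.52 in replicate 2, against 3.02 and 3.59 over all genes with a peak. Thus in replicate 2 the members were below other genes on both measures, and in replicate 1 on fold enrichment alone.

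**Figure D3:**
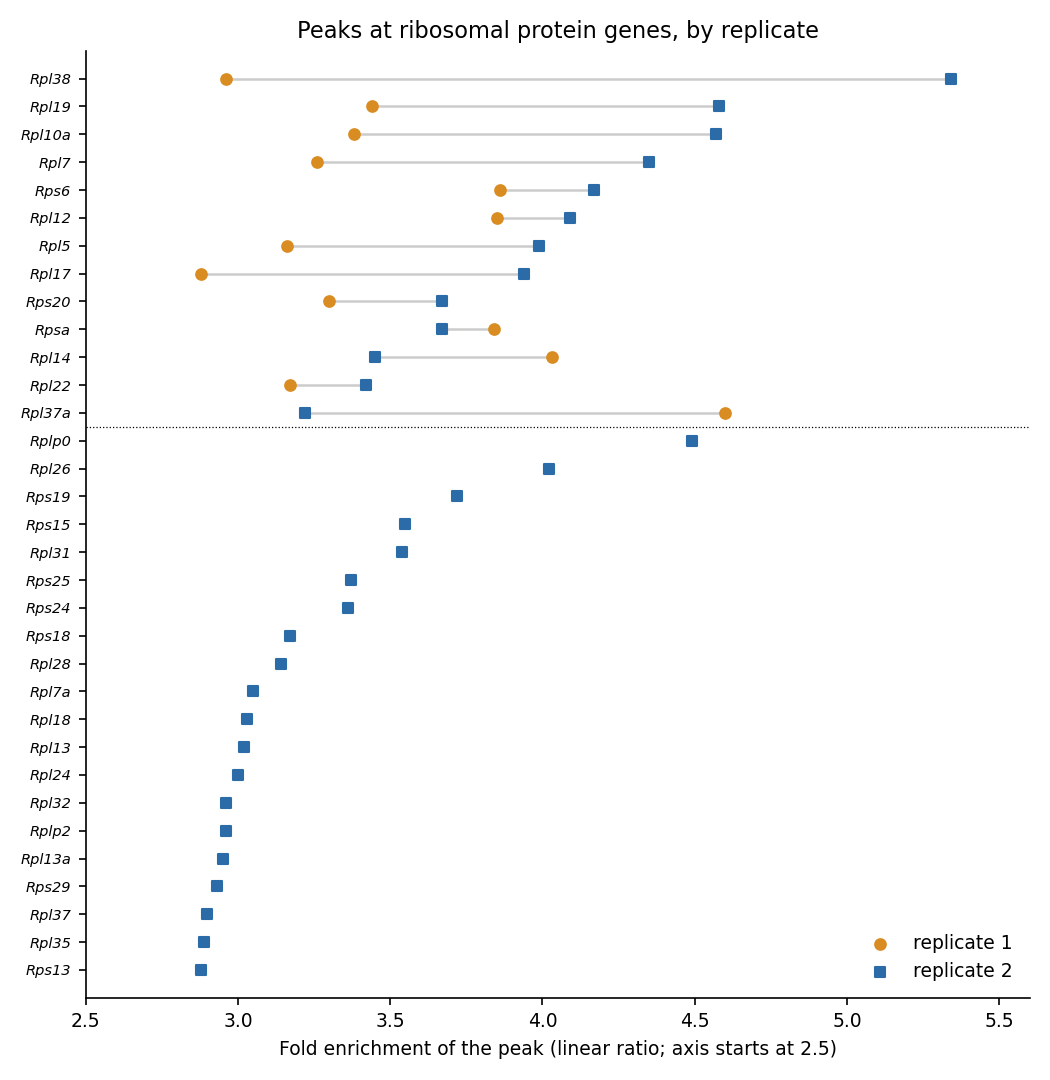
Fold enrichment (linear ratio, axis from 2.5) of the peak of highest −log10 q at 33 of the 37 occupied ribosomal protein genes, circles for replicate 1 and squares for replicate 2. The 13 members above the dotted line have a peak in both replicates, and 10 of them are higher in replicate 2.

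Large-subunit genes had a merged region in 24 of 42 cases (57.1%, interval 41.0 to 72.3), and 11 (26.2%) had a peak in both replicates. The plot of fold enrichment by member gives their values by replicate. Genes of like CpG density had shares of 84.7% and 60.2%. Rpl12, a protein at the base of the ribosomal stalk, had the largest −log10 q in the weaker replicate of all members, with fold enrichment 3.85 in replicate 1 and 4.09 in replicate 2 (−log10 q 3.94 and 4.41). Its main region ran over the start sites of both Rpl12 and the neighbouring Lrsam1, so it cannot be assigned to either. Rpl14 had 4.03 and 3.45, and Rpl37a had 4.60 and 3.22, the highest fold enrichment of any member in replicate 1. These 2 members and Rpsa were the only ones higher in replicate 1.

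Rpl19 stood at 3.44-fold in replicate 1 and 4.58-fold in replicate 2, with a region of 1327 bp centred 9 bp from its start site. Rpl10a had 3.38 and 4.57, with a region of 1534 bp that was the second widest of the members. Rpl5, which binds ribosomal RNA together with Rpl11 and can restrain the p53 regulator Mdm2, had 3.16 and 3.99. Its partner Rpl11 had no region, and the nearest one lay 17611 bp from a start site.

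Rpl38, which in mouse is linked to the translation of Hox transcripts, had the highest fold enrichment of any member in replicate 2, at 5.34, and 2.96 in replicate 1. This difference of 2.38, the largest between replicates, compared separate peaks. The replicate 1 value came from a region upstream of the start site, and at the region that began 113 bp downstream, where replicate 2 gave 5.34, replicate 1 gave 2.81. Around its start site 18.5% of the 32-base stretches occur at more than 2 places of the genome, a limit above which the authors' aligner dropped reads, and the part of this in its values was not tested.

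Rpl17 and Rpl22 were among the members of lowest mean fold enrichment. Values were 2.88 and 3.94 at Rpl17, and 3.17 and 3.42 at Rpl22, which has a known part in T-cell development. Rpl7 had 3.26 and 4.35, but its region, the widest of all at 1628 bp (chr1:16094839-16096466), began 96 bp upstream of the Rpl7 start and held the start site of Rdh10, a retinol dehydrogenase. Its printed stretch overlaps the edge of that region only.

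The large-subunit genes with a peak in replicate 2 alone numbered 13. They were Rpl7a, Rpl13, Rpl13a, Rpl18, Rpl24, Rpl26, Rpl28, Rpl31, Rpl32, Rpl35, Rpl37, Rplp0 and Rplp2. Rpl26 had the highest fold enrichment of the Rpl series among them, at 4.02, and Rpl35 the lowest, at 2.89. The region at Rpl7a also covered a start site of Med22, and that at Rpl18 one of Sphk2. Neither region can be assigned to 1 gene. The region at Rpl13a, a host gene of snoRNAs (small RNAs that guide the modification of ribosomal RNA), lay nearest the start site of Flt3l, a cytokine gene, and had a −log10 q of 1.06, the weakest call of all members.

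The large-subunit genes without a region were Rpl3, Rpl4, Rpl6, Rpl8, Rpl9, Rpl11, Rpl15, Rpl21, Rpl23, Rpl23a, Rpl27, Rpl27a, Rpl29, Rpl30, Rpl34, Rpl35a, Rpl36 and Rplp1, 18 in number. The stalk proteins, which recruit the translation factors, were not alike. Rplp0 had a replicate 2 peak of fold enrichment 4.49 (−log10 q 4.49), Rplp2 one of 2.96 (1.57), and Rplp1 none in either replicate. None of the 3 had a replicate 1 peak.

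Small-subunit genes had a merged region in 13 of 30 cases (43.3%, interval 25.5 to 62.6), and 5 (16.7%) had a peak in both replicates. Genes of like CpG density had shares of 86.8% and 62.7%. The intervals of the subunits overlapped, and the difference between them was not tested. Rps6, the target of the S6 kinases in growth signalling, had 3.86-fold enrichment in replicate 1 and 4.17 in replicate 2. Rpsa, also known as the laminin receptor, had 3.84 and 3.67, the closest pair of values of the 16.

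Rps20 had 3.30 and 3.67. The 8 with a peak in replicate 2 alone included Rps13, Rps15, Rps18, Rps19, Rps24, Rps25 and Rps29. Of these, Rps19, needed for maturation of the small subunit, had the highest fold enrichment, at 3.72, and Rps13 the lowest, at 2.88. The region at Rps25 also covered a start site of Trappc4, so it cannot be assigned to either gene.

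The 17 small-subunit genes without a region included Rps2, Rps3, Rps3a, Rps7, Rps9, Rps10, Rps12, Rps14, Rps15a, Rps16, Rps21, Rps23, Rps26, Rps27, Rps27a and Rps28. Among them are Rps3, at the entry channel of the mRNA, Rps14, whose loss causes anaemia in a human deletion syndrome, and Rps27a, made as a fusion with ubiquitin. Over all 35 unoccupied members the nearest merged region lay 3681 bp (Rps2) to 362269 bp (Rps12) from a start site, with a median of 14367 bp. It lay within 10000 bp at 9 of them, so most were not near misses of the 2.5 kb limit.

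Replicates ranked the members differently. Among the 16 members with a peak in both, Spearman's rho between replicates was −0.0412 for fold enrichment and 0.118 for −log10 q, as a description over genes that share their libraries. Fold enrichment was higher in replicate 2 at 13 members and in replicate 1 at 3, with medians of 3.97 and 3.34. The median standard deviation of a member between replicates was 0.480, so the order within this narrow range was not shared. Members found in replicate 2 alone had a median fold enrichment there of 3.05 and a median −log10 q of 2.04, against 3.97 and 3.66 for members found in both. With −log10 q of at least 2, 11 of the 21 were kept.

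The 37 occupied members held 39 regions, 1 each except at Rpl12 and Rpl38, which had 2. The midpoint lay downstream of the nearest start site in 27 regions and upstream in 12, with a median of 86.5 bp downstream. It fell in an intron of the member in 17 regions, in an exon in 12 and outside the gene in 10. A region covered a start site at 23 of the 37 members (62.2%, interval 44.8 to 77.5), against 82.3% of occupied genes of like CpG density.

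**Figure D4:**
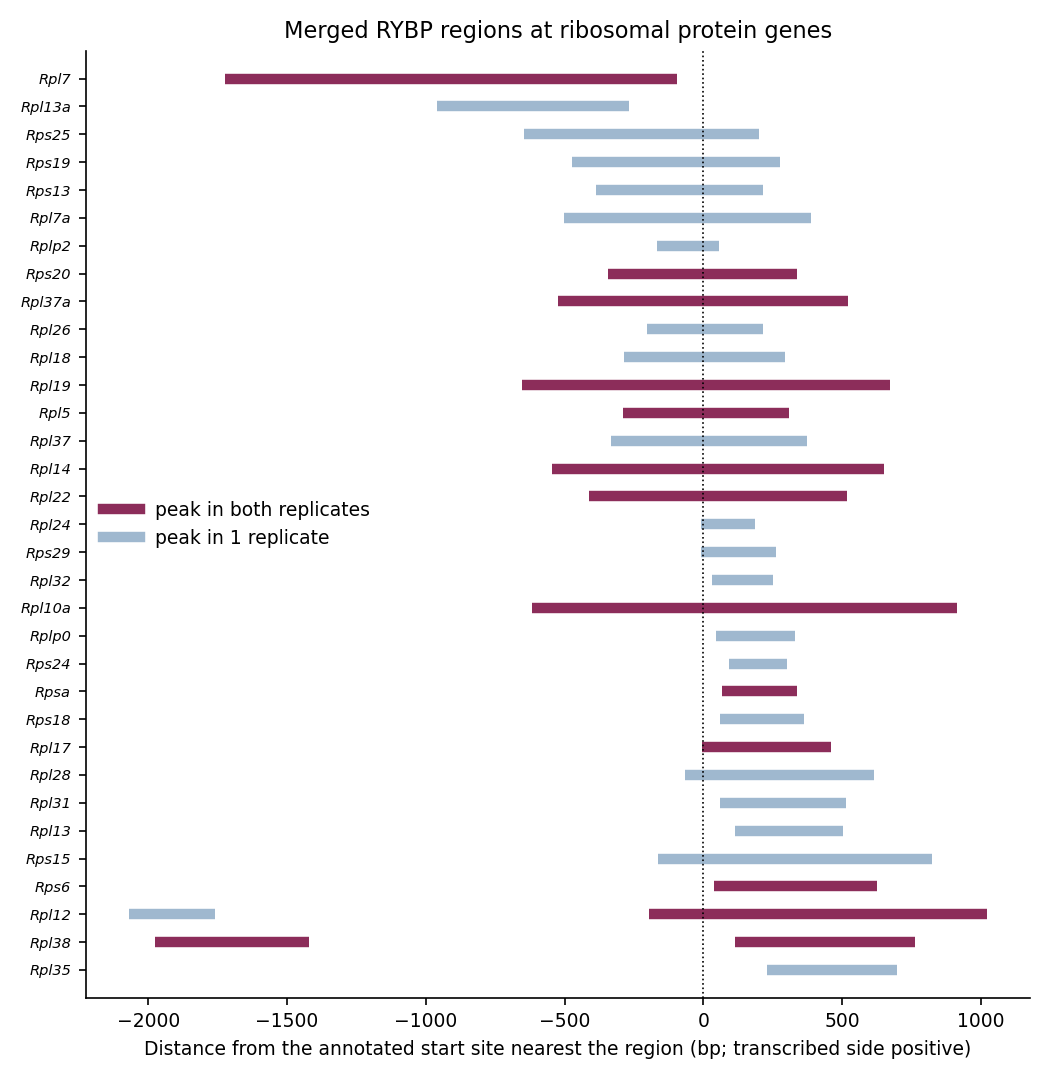
Merged regions at 33 of the 37 occupied ribosomal protein genes, 35 in all, as bars from left to right edge, by distance from the annotated start site nearest the region (bp, transcribed side positive), dark where both replicates had a peak. At 10 of these members the bar nearest the start site begins 30 to 230 bp past it.

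The plot of region positions shows a group whose region began just inside the gene. At 12 of the 14 members with no start site covered, the region nearest a start site lay wholly on the transcribed side and began 30 to 230 bp from it. Rpl38 had a second region upstream in addition. The 12 included Rpl13, Rpl31, Rpl32, Rpl35, Rpl38, Rplp0, Rps6, Rps18, Rps24 and Rpsa. Together they were 32.4% of the occupied members, against 14.2% of occupied genes of like CpG density. At Rpl13, Rpl31, Rpl32, Rpl35, Rplp0, Rps18 and Rps24 the region had a peak in replicate 2 alone. The widest region of a member was also narrower, with a median width of 652 bp against 1049 bp at genes of like CpG density. The part of width in the share of 32.4% was not tested. Of the 14, Rpl7 and Rpl13a remained, with regions upstream and nearest the start site of another gene. The start sites were those of the annotation, and start sites used in these cells were not analysed here.

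Ribosomal protein mRNAs typically begin with a C followed by a run of pyrimidines, through which their translation follows growth signals. A start site with C and at least 4 further C or T was annotated at 15 members (20.8%), against 4.03% of all autosomal protein-coding genes. Any annotated start site of a gene counted, and the median number was 2 for members and 1 for all these genes. Such a start site was annotated at 7 of 37 members with a region (18.9%) and 8 of 35 without (22.9%). The 4 longest runs are shown with 10 bases before the annotated start and 20 from it, with the run in capitals. They mark annotated start sites with the typical sequence, and whether transcripts began there in these cells was not analysed. Rps24 (chr14:25309930-25309959, plus strand) and Rpl32 (chr6:115758746-115758775, minus strand) had a region in replicate 2 alone. Rps2 (chr17:24857045-24857074, plus strand) and Rps3 (chr7:106632142-106632171, minus strand) had none.
Rps24: gtgagcggtcCTCTTTTCCTCCTCTCCagc
Rpl32: gccgccgcctCTTCCTTCTTCCTCggcgct
Rps2: gcgcctccctCTTCTTCTTCTTCgggagaa
Rps3: cgagccacttCCTTTCCTTTCagcggcgcg
At Rps24 the region began 91 bp and at Rpl32 30 bp past such a start site.

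Other gene features were set beside occupancy within the members. SnoRNA genes lay inside 20 members, 12 of which had a region (60%), against 25 of 52 without a snoRNA gene (48.1%). Another protein-coding gene started within 2.5 kb of 16 members, and 8 of these had a region (50%), against 29 of 56 without such a neighbour (51.8%). Median gene length was 3243 bp with and 3568 bp without a region, and median exon count 6 and 5. The members are short for genes of like CpG density, whose median length was 23055 bp. With other genes matched on CpG density and on length together, the share to compare with 51.4% was 87.4%.

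Ribosomal protein genes have many processed pseudogene copies, and reads that fit several places were dropped before peaks were called. The share of 32-base stretches within 500 bp of the start site that occur at more than 2 places of mm9 had a median of 3.14% over the members and 0% over all autosomal genes. Its highest value was 30.2%, at Rps29. The median was 1.65% in members with a region and 3.81% in those without. More than 10% was repeated at 13 members, and 8 of these had a region. Among the 42 members with at most 5% repeated, 21 had a region (50%), against 87.9% of other genes under the same limit and of like CpG density. The difference was −37.9 percentage points, against −34.2 over all members. Only exact matches around the densest start site were counted, so copies with mismatches were missed. The part of repeats in the gap was not tested.

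Members were below other genes also when matched on base composition, though by less. With genes of like GC content in place of CpG density, the share to compare with 51.4% was 72.8%. The median GC content was 58.7% over the members and 61.4% over genes of like CpG density.

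Short motifs were counted on either strand from 250 bases before to 50 after the start site of highest CpG density. They were picked with the data known, and none contains another. ACTTCCG, the core of Ets-family sites, was found at 23 members (31.9%), against 8.30% of all autosomal genes and 14.1% of genes of like CpG density, and at 13 of 37 members with a region (35.1%) and 10 of 35 without (28.6%). TATAAA was found at 7 members (9.72%), below the 12.7% of all genes and above the 5.23% of genes of like CpG density. The palindrome TCGCGA was found at 14 members (19.4%), against 3.47% of all genes and 5.84% of genes of like CpG density, and at 9 members with a region (24.3%) and 5 without (14.3%). Rpl17, Rpl37a and Rps6 were among the members of this group with peaks in both replicates.

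Other genes of ribosomes and translation were set beside the members. Of 77 mitochondrial ribosomal protein genes, which serve the separate ribosome of the mitochondrion, 45 had a merged region (58.4%), against 77.1% of genes of like CpG density. In both replicates it was 16 (20.8%), against 52.2%. Of 64 initiation and elongation factor genes 45 had a region (70.3%, against 84.6%), and 26 had peaks in both replicates (40.6%, against 64.1%).

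Ribosome biogenesis factors, which make and process ribosomal RNA and assemble the subunits, were at the share of their like genes by merged regions and below it in each replicate. Of 36 such genes 30 had a region (83.3%, interval 67.2 to 93.6), level with the 83.8% of genes of like CpG density. In replicate 1 the share was 55.6%, against 63.8%, and in replicate 2 it was 75%, against 80.3%. In both replicates it was 17 (47.2%, interval 30.4 to 64.5), against 60.3%, and this interval overlapped that of the ribosomal protein genes. The intervals cover counting error over genes of shared libraries only. This list was chosen with earlier results of these data known, and its difference from the ribosomal protein genes was not tested. Npm1, the nucleolar chaperone nucleophosmin, had values of 3.48 (replicate 1) and 3.81 (replicate 2), and Rrs1 had 3.43 and 3.86. Their median CpG density was 6.89, close to the 7.14 of the members.

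Proteasome subunit genes, taken by symbol alone and not limited to housekeeping subunits, were below like genes to about the same extent as ribosomal protein genes. Of 40, 16 had a region (40%, interval 24.9 to 56.7), against 76.4%, and 7 had peaks in both replicates (17.5%, against 50.7%). A share below that of like genes was thus also measured in a list outside the ribosome.

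**Figure D5:**
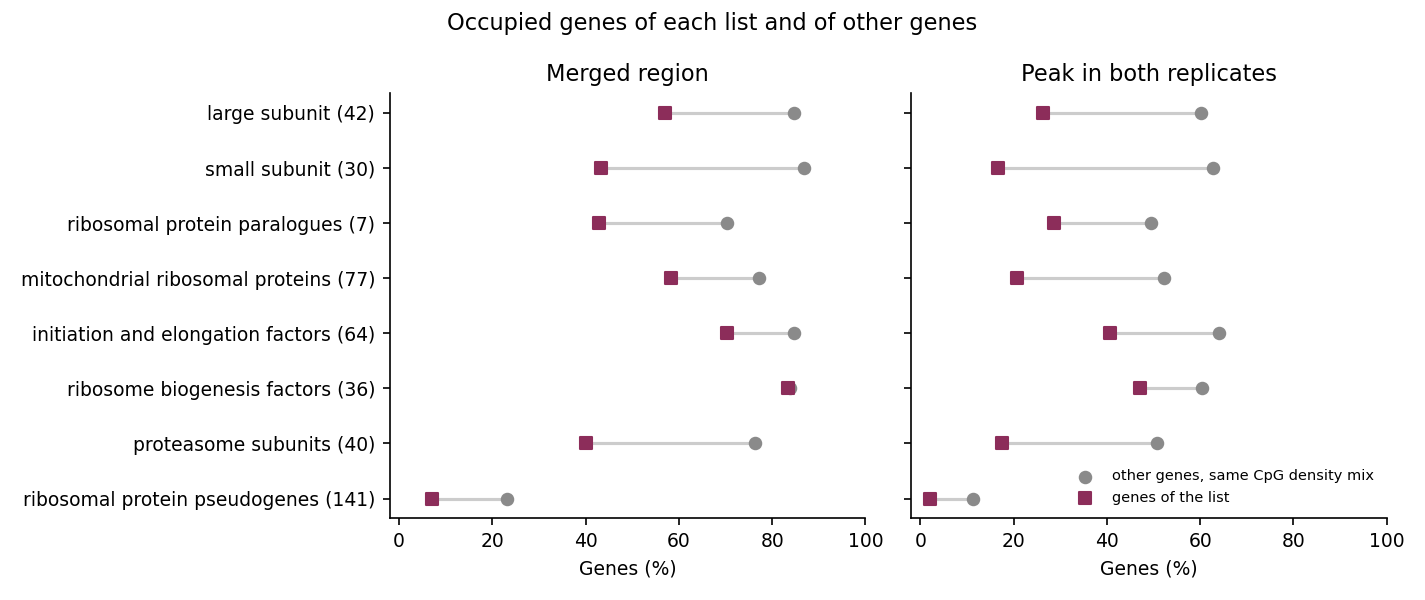
Share of genes (%) with a merged region and with a peak in both replicates for each list, squares, beside other genes weighted to the same CpG densities, circles, with the number of genes in parentheses. Ribosome biogenesis factors lie at 83.3% beside 83.8% for merged regions and at 47.2% beside 60.3% for both replicates. For merged regions both ribosomal subunits, the 7 paralogues and the proteasome lie more than 20 percentage points below their like genes. The interval of the 7 paralogues (9.90 to 81.6) holds the share of their like genes.

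The plot of occupancy by list sets these values side by side. Of the 7 autosomal paralogues of ribosomal protein genes that the annotation holds under the names listed, 3 had a region (42.9%, against 70.3%). With so few genes the interval was 9.90 to 81.6, which holds the share of like genes. Rpl36al, the paralogue of highest CpG density, had fold enrichment of 4.22 and 4.35, and Rps27l had 3.15 and 2.90. Rpl22l1 had a peak in replicate 1 alone (3.01), and its relative Rpl22 had peaks in both replicates. Rpl3l, expressed in muscle, Rpl10l, expressed in testis, Rpl7l1 and Rpl39l had none. Their CpG densities were 1.40, 5.39, 4.50 and 3.10 per 100 bp in that order.

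The 4 X-linked ribosomal protein genes were left out of the members. Rpl39 had a replicate 2 peak of fold enrichment 3.17, and Rpl10, Rpl36a and Rps4x had none. Over all 932 X-linked protein-coding genes 19.3% had a merged region. Of 141 autosomal entries annotated as pseudogene copies of ribosomal protein genes by their symbol, 10 had a region (7.09%), against 23.1% of genes of like CpG density, and their median CpG density was 2.00. The genes compared were protein-coding, so the 2 shares are not of like loci. Repeated stretches were not counted at these copies, where reads that fit several places were dropped too.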

How the data were processed

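RYBP ChIP-seq peaks of 2 replicates from FLK1+ mesoderm were analysed. Per the study's methods, paired-end reads were aligned to mm9 with Bowtie (1.1.2b), duplicates were removed and broad peaks were called per replicate with MACS2 (2.0.10). The deposited lists give a score, the fold enrichment as a linear ratio, and −log10 of the p-value and q-value of each peak. The deposited merged list is the union of both and holds positions only. Depth is not in these files and entered no calculation.

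Start sites were those of protein-coding transcripts of GENCODE mouse M1 on mm9. A region counted when it overlapped the 2.5 kb window on either side by at least 1 bp, and a member's value was that of its peak with the highest −log10 q. Genes of like CpG density were all other autosomal protein-coding genes, weighted to the members' counts in bins of 1 CpG per 100 bp. Stretches of 32 bases were counted over the whole genome on both strands.

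The members and lists were chosen with earlier results of these data known. The lists were those with symbols of the Mrpl or Mrps, Eif or Eef and Psma to Psmd series, 36 biogenesis factors, 8 paralogue symbols, the X-linked genes and pseudogene symbols. Members named were those without a region or with a peak in 1 replicate, and the extremes of −log10 q, fold enrichment, CpG density, width and replicate difference. Some members (5) are counted but not reported by name here, and are neither drawn nor printed. Where an upstream stretch held an annotated exon, as at Rpl12, the next member by rank was printed, and none on chromosome 18. The overlap code was tested on simulated data. Python (3.11.15), NumPy (2.4.6), SciPy (1.17.1), pysam (0.24.0), numba (0.67.0) and matplotlib (3.10.9) were used.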

Additional observations from a re-analysis of the deposited data

How the results depend on the processing

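The members lay below genes of like CpG density under all 18 alternatives run, with differences of −42.6 to −21.4 percentage points, and no value reversed. The gap was smallest, at −21.4 points, with genes matched on GC content in place of CpG density. The share of members with a merged region was 37.5% with −log10 q of at least 2 and 38.9% with fold enrichment of at least 3, and leaving out 1 replicate gave 22.2% to 51.4%. Other windows, the outermost or the densest start site alone, members without a neighbouring start site, and regions nearest the gene's own start site left the merged share between 48.6% and 54.2%. The share with peaks in both replicates ranged from 18.1% to 31.9%, and the upper value needed a window of 5 kb. This share does not require the peaks of the replicates to overlap. At 5 kb the merged share was 54.2%, and overlap of the peaks was not examined there. The gap ranged from −42.3 to −30.9 points when 1 replicate was left out, and start-site coverage from 50% to 59.5%. Median fold enrichment was 3.44 in replicate 1 and 3.67 in replicate 2 with −log10 q of at least 2. In replicate 2 it was 3.97 over members with a peak in both replicates and 3.54 without members that have a neighbouring start site. No member has a single exon in all transcripts, so leaving out such members removed none. Matching on gene length, the limit on repeats, the densest start site alone and the choice of nearest start site were chosen after seeing the data. No paired analysis was possible because only the ChIP group was analysed here, and it holds no second group with the same replicate numbers. The lists hold called peaks only, so a member without a peak may have RYBP below the calling threshold, and absence of occupancy cannot be stated.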
